A study of Rattus norvegicus with 31 samples.

Results

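A diet high in salt was set against a normal control diet in 2 organs of the rat (Rattus norvegicus), the colon and the kidney cortex, and the response of each gene in the colon was compared with its response in the cortex. The 18 libraries were those of the high-salt model (HS) and normal control (NC) groups of both organs, out of 31 in the series. They comprised 4 HS colon, 5 NC colon, 4 HS cortex and 5 NC cortex libraries. HS colon replicate 3 was left out because it carried small intestine transcripts. That library was selected on its measured marker levels, and the genes described were chosen by their HS effects in these same libraries, so their values are a description of them. The remaining group, high salt with calcitriol (CAL), the active form of vitamin D, was not part of the comparison. The labels used here give the organ and the diet group of each sample. The rats' strain, sex and age, the salt content and length of the diet, and the time of day at collection are not given in the sources used here. Nothing in the labels ties a colon library to a cortex library of the same animal. The p-values rest on the spread between the deposited samples, estimated for each gene over both organs together except where an organ was fitted alone.

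The kidney cortex filters the blood and returns most of the filtered salt to it through the proximal tubule, and the distal tubule and collecting duct set how much salt is finally lost in the urine. The surface cells of the colon absorb sodium, chloride and water under control of aldosterone, which also acts on the distal kidney. Both organs have a circadian clock, in which the activators Arntl and Clock drive the repressors of the Per and Cry families and the output factors Dbp and Tef, while the nuclear receptors Nr1d1 and Nr1d2 repress Arntl. Metallothioneins are small proteins that bind zinc and copper and are induced by metals and glucocorticoids.

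Total counts ran from 305700 to 918820 per colon library and from 289529 to 1239310 per cortex library, and 3 counts, the most that a count of 0 allows, were worth 2.42 to 10.4 CPM, the counts scaled to a common library total. This limit covers counting error only. The summed level of 20 proximal tubule markers was 772 to 1135 CPM in HS colon, 704 to 1197 CPM in NC colon, 52648 to 54642 CPM in HS cortex and 45261 to 55568 CPM in NC cortex. The 19 surface colonocyte markers summed to 36685 to 62455 CPM in HS colon and 53502 to 61574 CPM in NC colon, against 1737 to 2100 CPM in HS cortex and 1762 to 1869 CPM in NC cortex, so the libraries carried the markers of their labelled organ. The 25 small intestine markers summed to 482 to 1312 CPM in the 4 HS colon libraries and 505 to 1806 CPM in NC colon, while the HS colon library left out had 63273 CPM. The 15 smooth muscle markers ranged from 3176 to 31423 CPM in HS colon and from 4160 to 20915 CPM in NC colon. The 13 B and plasma cell markers ranged from 139 to 2403 CPM in HS colon, highest in replicates 4 and 5, and from 149 to 874 CPM in NC colon. Whether these cell types had a part in the colon results was not tested, except where a fit with the muscle level or without those libraries is given.

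The promoters of 3 genes are shown as examples: Mt2A (metallothionein 2A), whose effect differed between the organs, and the clock genes Arntl and Per2, which lay on the same side in both without passing the adjusted test in either. They are the 250 bases before the start of each gene from RefSeq on build GRCr8, 5′ to 3′ on the strand of the gene, with motif matches in capitals. The deposited counts rest on another build, Rnor_6.0, and no count is tied to these positions. For Mt2A, at chr19:10838709-10838958 on the minus strand, the capitals mark the core TGCGCNC or TGCACNC of the metal response element on either strand. For Arntl, listed by RefSeq as Bmal1, at chr1:176766078-176766327 on the plus strand, they mark AGGTCA, the core of the sites bound by nuclear receptors such as Nr1d1. For Per2, at chr9:99496994-99497243 on the minus strand, they mark TTANGTAA, a site for factors of the Dbp and Tef family, and further downstream CACGTT, an E-box-like site for Arntl and Clock.
Mt2A: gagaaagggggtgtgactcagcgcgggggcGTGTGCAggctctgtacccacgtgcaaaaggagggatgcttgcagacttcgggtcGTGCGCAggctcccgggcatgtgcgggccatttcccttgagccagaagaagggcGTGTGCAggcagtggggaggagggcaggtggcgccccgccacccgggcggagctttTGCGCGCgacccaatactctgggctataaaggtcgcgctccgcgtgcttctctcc
Arntl: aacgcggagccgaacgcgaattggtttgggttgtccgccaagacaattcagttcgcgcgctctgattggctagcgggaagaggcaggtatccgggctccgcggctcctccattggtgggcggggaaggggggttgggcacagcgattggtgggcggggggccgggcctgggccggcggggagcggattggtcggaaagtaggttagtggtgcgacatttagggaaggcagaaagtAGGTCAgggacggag
Per2: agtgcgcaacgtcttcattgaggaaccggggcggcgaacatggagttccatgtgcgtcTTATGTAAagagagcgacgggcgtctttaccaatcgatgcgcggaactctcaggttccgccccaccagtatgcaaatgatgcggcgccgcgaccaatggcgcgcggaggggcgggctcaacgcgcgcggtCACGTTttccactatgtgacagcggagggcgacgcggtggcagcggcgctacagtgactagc

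The Mt2A window held 4 metal response cores, at -220 to -214, -165 to -159 and -111 to -105 on the opposite strand and at -55 to -49 on the strand of the gene, counted back from the start. Of 27457 rat promoter windows of this length, 21.2% held at least 1 such core and 0.273% held 4 or more. AGGTCA, at -15 to -10 in Arntl, was in 13.7% of the windows. CACGTT, at -62 to -57 in Per2, was in 4.18%, and TTANGTAA, at -192 to -185 in Per2, was in 2% of them. These matches are descriptions of the letters, not of binding.

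Of 5708 genes counted deeply enough in both organs, 50.9% had the same sign in colon and cortex, and across genes the log2 effects had a Pearson r of 0.04 and a Spearman rho of 0.014, given as a description since genes are not independent replicates. The effects had a median size of 0.22 on the log2 scale in the colon and 0.30 in the cortex. The median SE was 0.26 in each organ, but it rests on a spread estimated over both organs, so it does not compare their precision. A negative binomial model with 1 mean per group (edgeR quasi-likelihood, Benjamini-Hochberg adjusted p at or under 0.05) called 6 genes between HS and NC in the colon, 0.105% of those tested (3 higher and 3 lower, 0.0526% each), and 117 in the cortex, 2.05% (83 higher, 1.45%, and 34 lower, 0.596%). At an unadjusted p of 0.05 the same fit gave 648 genes in the colon, 11.4% (6.13% higher, 5.22% lower), and 1211 in the cortex, 21.2% (11.3% higher, 9.95% lower). The groups did not overlap for 128 genes in the colon, 2.24%, and for 847 in the cortex, 14.8%. The 2 organs share 1 estimate of spread per gene in that model, and when each was fitted alone on the same genes, a choice made after seeing the data, the colon had 0 calls and the cortex 908. The cortex count was 3, 6, 13 and 74 without HS cortex replicates 2, 1, 4 and 3, and 10, 18, 21 and 34 without NC cortex replicates 5, 3, 1 and 4. It was 383 and 185 without HS colon replicates 4 and 1. The colon count was 62 and 20 without HS colon replicates 1 and 5 and 19 without NC colon replicate 1. It was 1 without NC colon replicate 3 or 4, and 2 without NC colon replicate 2, HS cortex replicate 2, 3 or 4, or NC cortex replicate 1, 3, 4 or 5.

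**Figure D1:**
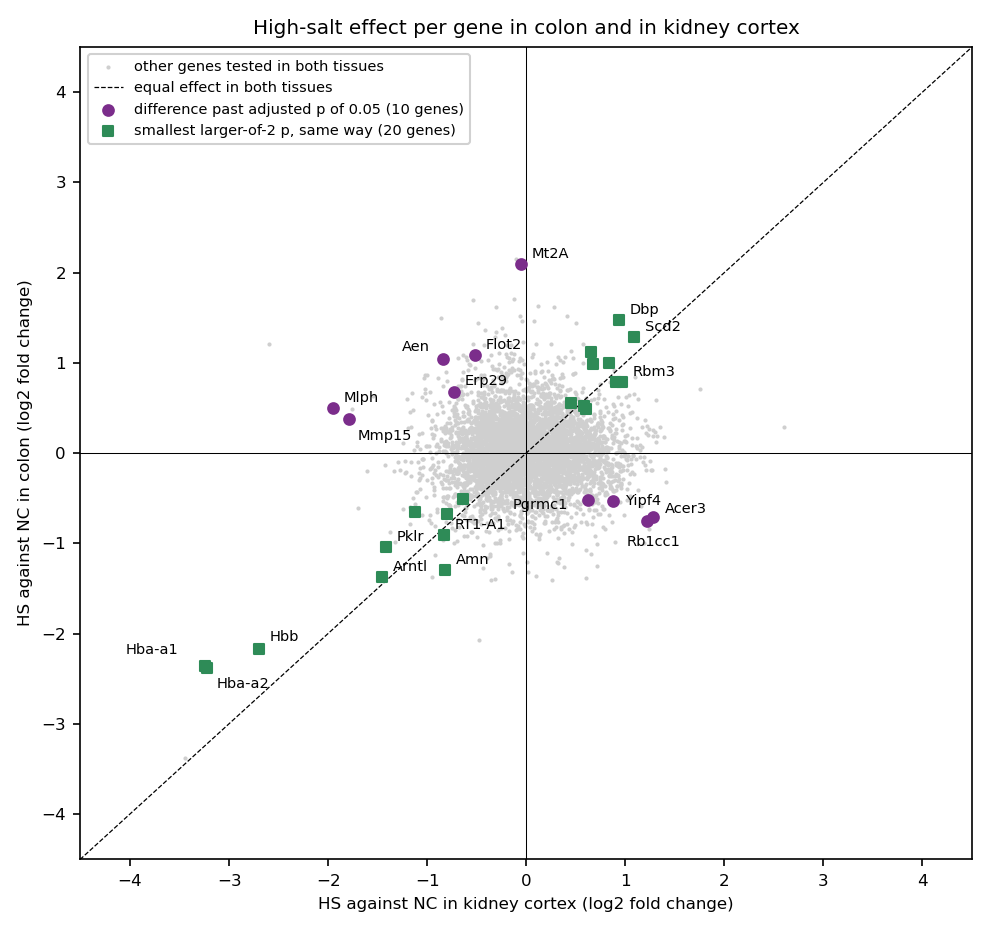
Log2 fold change of HS against NC in the cortex (x axis) and in the colon (y axis) for each of the 5708 genes tested in both organs. Purple circles are the 10 genes whose effect differed between the organs, all at the upper left or lower right; green squares are the 20 genes with the smallest larger-of-2 p on the same side, with the haemoglobin genes at the lower left.

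The difference between the organs, taken as the HS effect in the colon minus the HS effect in the cortex, passed the threshold for 10 genes, 0.175% of those tested. Of these, 6 (0.105%) were higher in the colon relative to the cortex (Mlph, Mt2A, Erp29, Flot2, Mmp15 and Aen) and 4 (0.0701%) lower (Rb1cc1, Yipf4, Pgrmc1 and Acer3). All 10 had effects of opposite sign in colon and cortex, which choosing genes by a large difference favours. For Mt2A the cortex effect was only -0.06 (SE 0.24), and for Mmp15 the colon effect was 0.37 (SE 0.26), so these 2 signs are not settled. No gene passed the adjusted test in each organ with opposite signs (0 of 5708, 0%). For none of the 10 are both signs settled by that test. At an unadjusted p of 0.05 the difference was met by 887 genes, 15.5% (7.78% higher, 7.76% lower), of which 415 were higher in HS colon and lower in HS cortex, 387 were lower in HS colon and higher in HS cortex, 57 were higher in both and 28 lower in both. The count of 10 became 119 without HS colon replicate 1 and 41 without HS colon replicate 5. It was 6 without NC colon replicate 2, 5 without NC colon replicate 3 or NC cortex replicate 1, 4 without NC cortex replicate 4 or HS cortex replicate 1, and 2 without NC colon replicate 4 or 5 or NC cortex replicate 3. It was 1 without NC cortex replicate 5 or HS cortex replicate 2, and 0 without HS cortex replicate 4. The direction of each of the 10 differences was the same in every alternative in which the gene was tested. The genes were chosen for a large difference in mostly the same libraries, so a kept direction adds no support.

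Mt2A, the metallothionein, had the smallest p of the colon effects. It had 145, 111, 208 and 129 CPM in HS colon, against 21.5, 10.8, 47.3, 48.5 and 46.2 CPM in NC colon. In the cortex, where the gene was far more abundant, it had 687, 555, 654 and 599 CPM in HS and 506, 534, 562, 1057 and 586 CPM in NC. Every HS colon library lay above every NC colon library, whereas the cortex groups overlapped. The log2 fold change was 2.09 in the colon (SE 0.31, adjusted p = 0.00226 by edgeR quasi-likelihood) and -0.06 in the cortex (SE 0.24, adjusted p = 0.921), a difference of 2.15 (SE 0.40, adjusted p = 0.0286). The call of the difference was lost without NC cortex replicate 5 or HS cortex replicate 2 or 4, with an adjusted p of up to 0.0868, and the colon call was kept with each of the 18 libraries left out. The difference call was also lost in 5 other alternatives, 2 filters on low counts, CAL libraries added to the fit (adjusted p = 0.132), HS colon replicate 3 put back (0.113) and thinning, and the colon call in 3, voom with a variance per organ (0.0952), CAL libraries added (0.0626) and each organ fitted alone (0.063). The difference was 1.96 (adjusted p = 0.0331) without HS colon replicates 4 and 5 and 2.14 (adjusted p = 0.0223) with the muscle level as a covariate. The close paralog Mt1 lay on the same side in the colon, with 215, 101, 368 and 160 CPM in HS and 23.6, 52.2, 110, 112 and 90.5 CPM in NC (log2 fold change 1.44, SE 0.33, adjusted p = 0.062), and had 346, 281, 323 and 233 CPM in HS cortex against 182, 153, 236, 277 and 198 CPM in NC cortex (0.50, SE 0.30, adjusted p = 0.341). The groups for Mt1 overlapped in each organ. Mt1 was named after its values were seen, and reads of so similar a pair of genes may be split between them. In the CAL libraries, Mt2A ran from 7.12 to 302 CPM in CAL colon and from 509 to 1252 CPM in CAL cortex.

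Mlph (melanophilin), which links Rab27a vesicles to the motor myosin Va, had the smallest p of the difference. It had 119, 114, 148 and 76 CPM in HS colon, against 101, 59.4, 75.7, 92.4 and 79 CPM in NC colon. In the cortex it had 7.93, 16.3, 29.7 and 14.4 CPM in HS, against 63.7, 78.7, 44.4, 55 and 61.3 CPM in NC. The cortex groups did not overlap and the colon groups did. The log2 fold change was 0.50 in the colon (SE 0.23) and -1.95 in the cortex (SE 0.31), a difference of 2.44 (SE 0.38, adjusted p = 0.0064 by edgeR quasi-likelihood). This call was lost without HS cortex replicate 4 (adjusted p = 0.0615) and kept with each of the other 17 libraries left out. Thinning to the shallowest library also ended it (adjusted p = 0.0687). The cortex fall itself (adjusted p = 0.00311) passed in all 33 alternatives.

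Mmp15, a membrane-anchored matrix metalloproteinase, had the same pattern. It had 88.6, 60.7, 111 and 53.2 CPM in HS colon and 75.2, 54, 66.2, 66.7 and 46.2 CPM in NC colon. In the cortex it had 10.6, 7.26, 17 and 10.1 CPM in HS, against 24.1, 26.6, 40, 40.7 and 55.1 CPM in NC, so that the cortex groups lay apart. The log2 fold change was 0.37 in the colon (SE 0.26, adjusted p = 0.64 by edgeR quasi-likelihood) and -1.79 in the cortex (SE 0.37, adjusted p = 0.0236), and the difference was 2.16 (SE 0.45, adjusted p = 0.0364). Erp29, a chaperone of the endoplasmic reticulum, had 102, 167, 163 and 167 CPM in HS colon against 88.1, 115, 110, 60.6 and 88.6 CPM in NC colon, and 153, 180, 144 and 128 CPM in HS cortex against 224, 242, 256, 263 and 276 CPM in NC cortex. The Erp29 groups lay apart in the cortex and overlapped in the colon through HS replicate 1 alone. Its log2 fold change was 0.68 (SE 0.20) in the colon and -0.73 (SE 0.19) in the cortex, a difference of 1.41 (SE 0.27, adjusted p = 0.0286).

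Flot2 (flotillin 2), a scaffold protein of membrane rafts, and Aen, a nuclease induced by p53 during apoptosis, completed the genes higher in the colon relative to the cortex. Flot2 had 67.7, 73.3, 128 and 49.4 CPM in HS colon against 38.7, 46.8, 31.5, 28.8 and 40.4 CPM in NC colon. In the cortex Flot2 had 82, 88.9, 106 and 111 CPM in HS and 179, 127, 136, 129 and 125 CPM in NC. It was apart in both organs in opposite directions (log2 fold change 1.09, SE 0.25 in the colon and -0.52, SE 0.22 in the cortex), with a difference of 1.6 (SE 0.33, adjusted p = 0.0343 by edgeR quasi-likelihood). Aen had 43, 32.9, 31.4 and 19 CPM in HS colon and 21.5, 10.8, 18.9, 13.6 and 17.3 CPM in NC colon, against 21.2, 20, 34 and 28.8 CPM in HS cortex and 44.8, 45.7, 46.7, 47.8 and 42.9 CPM in NC cortex. The 5 NC cortex values of Aen were within a narrow band above every HS cortex value, and the colon groups overlapped. Its log2 fold change was 1.04 (SE 0.29) in the colon and -0.84 (SE 0.26) in the cortex, a difference of 1.88 (SE 0.39, adjusted p = 0.0364).

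Of the 4 genes lower in the colon relative to the cortex, Rb1cc1 is a subunit of the kinase complex that starts autophagy. It had 54.7, 40.5, 25.7 and 49.4 CPM in HS colon against 55.8, 66.6, 63.1, 74.2 and 104 CPM in NC colon. In the cortex it had 39.7, 52.6, 51 and 56.1 CPM in HS against 32.7, 20.2, 20, 16.7 and 16.3 CPM in NC. The groups lay apart in both organs, with HS below NC in the colon (log2 fold change -0.75, SE 0.26) and above it in the cortex (1.22, SE 0.28, adjusted p = 0.0285 by edgeR quasi-likelihood), and the difference was -1.97 (SE 0.38, adjusted p = 0.0286). Pgrmc1, a haem-binding membrane protein, had 146, 121, 114 and 160 CPM in HS colon against 165, 203, 192, 195 and 214 CPM in NC colon, and 820, 704, 586 and 619 CPM in HS cortex against 441, 517, 424, 356 and 476 CPM in NC cortex. Its groups too lay apart in both organs (log2 fold change -0.52, SE 0.17 in the colon and 0.62, SE 0.15 in the cortex), with a difference of -1.14 (SE 0.23, adjusted p = 0.0315).

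Acer3, an alkaline ceramidase, had 126, 73.3, 54.2 and 125 CPM in HS colon and 137, 173, 161, 142 and 169 CPM in NC colon. In the cortex it had 26.4, 61.7, 59.5 and 37.4 CPM in HS and 17.2, 21.3, 13.3, 28.7 and 12.3 CPM in NC. The colon groups lay apart and the cortex groups met at a single HS library, with a log2 fold change of -0.71 (SE 0.24) in the colon and 1.28 (SE 0.32) in the cortex and a difference of -1.98 (SE 0.40, adjusted p = 0.0329 by edgeR quasi-likelihood). Yipf4, a Golgi membrane protein, had 160, 106, 94.1 and 152 CPM in HS colon and 140, 171, 218, 200 and 204 CPM in NC colon, against 97.8, 98, 89.2 and 117 CPM in HS cortex and 53.4, 62.7, 55.6, 50.2 and 53.1 CPM in NC cortex. Its cortex groups lay apart and its colon groups overlapped (log2 fold change -0.53, SE 0.18 in the colon and 0.87, SE 0.20 in the cortex), with a difference of -1.40 (SE 0.27, adjusted p = 0.0286).

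Of the 10 genes, 7 also passed the cortex test alone (Mlph, Mmp15, Erp29, Rb1cc1, Yipf4, Pgrmc1 and Acer3) and 1 the colon test alone (Mt2A). When single libraries were left out, the calls other than those of Mlph and Mt2A were lost in 7 (Rb1cc1) to 11 fits (Flot2, Mmp15, Aen and Pgrmc1). Erp29 was lost in 8 and Yipf4 and Acer3 in 10, with the highest adjusted p 0.167 for Mmp15, Aen and Acer3. Aen was tested in 13 of these fits. Each of these 8 genes was lost without HS cortex replicate 2 and without HS cortex replicate 4. Just outside the threshold lay Lrrc19 with a difference of -2.08 (adjusted p = 0.0829), and Rab10 (-1.09), Vps9d1 (2.36), Rnh1 (1.03) and Chpt1 (-1.30), each with an adjusted p of 0.0864 by edgeR quasi-likelihood.

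**Figure D2:**
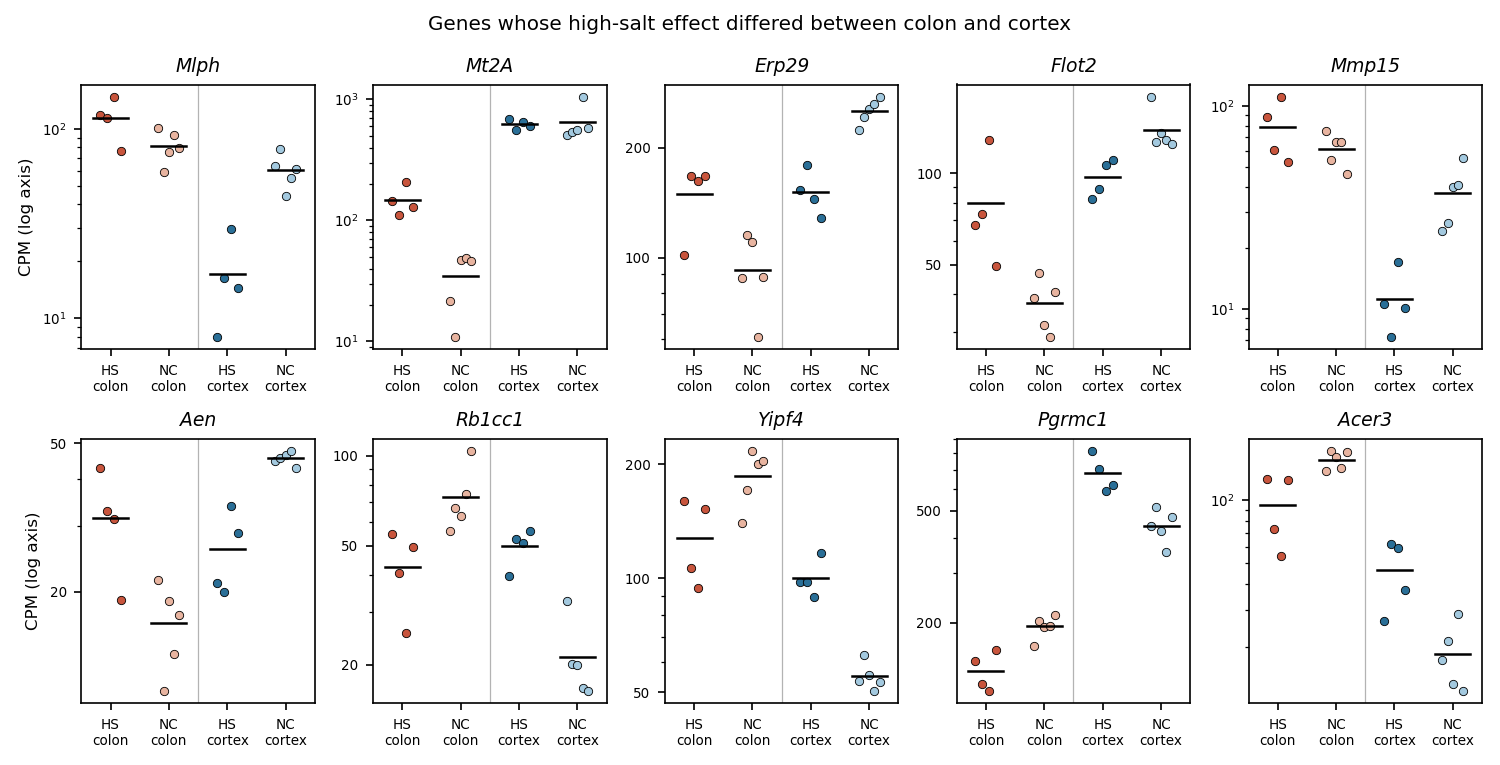
CPM (log axes, 1 point per library, bar = mean) of the 10 genes whose HS effect differed between the organs, for HS and NC colon and HS and NC cortex. In each panel the fitted HS effects have opposite signs in the 2 organs. For Rb1cc1, HS lies below NC in the colon and above it in the cortex. For Mt2A the shift is seen in the colon alone.

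Few genes met the test for moving the same way. No gene passed the adjusted threshold in both organs, and none passed when the larger of its 2 p-values was adjusted over all genes (0 of 5708, 0%), although DESeq2 gave 5 in both. At an unadjusted p of 0.05 in each organ, 83 genes lay on the same side, 1.45% (25 higher, 0.438%, and 58 lower, 1.02%), and 63 on opposite sides, 1.1% (34 higher in the colon, 0.596%, and 29 lower in the colon, 0.508%). In all, 16 genes, 0.28%, passed the adjusted test in 1 organ and an unadjusted p of 0.05 in the other on the same side, 2 higher (0.035%) and 14 lower (0.245%). Of the 117 cortex calls, 15 lay on the same side in the colon at an unadjusted p of 0.05, 12.8% of them, and 9 on the opposite side. Over all genes tested, 11.4% met that p in the colon, 6.13% higher and 5.22% lower. Of the 6 colon calls, 1 (Neu1) met it on the same side in the cortex, 16.7%. There 21.2% of all genes met it, 11.3% higher and 9.95% lower. The count of 16 was 3, 3 and 4 without HS cortex replicates 1, 2 and 4, and 5, 7, 9 and 5 without NC cortex replicates 1, 3, 4 and 5. It was 10 without NC colon replicate 2, and 29 and 72 without HS colon replicates 1 and 4. The groups were apart on the same side in both organs for 15 genes, 0.263%, and on opposite sides for 8 genes, 0.14%.

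Haemoglobin transcripts, which come from red cells in the blood of each organ, had the smallest p-values on the same side. Hbb had 169, 134, 97 and 209 CPM in HS colon against 277, 1205, 1110, 562 and 279 CPM in NC colon. In the cortex Hbb had 1126, 655, 837 and 509 CPM in HS against 9818, 4049, 2420, 2102 and 6792 CPM in NC. HS lay below NC without overlap in both organs (log2 fold change -2.17, SE 0.47, adjusted p = 0.0567 in the colon and -2.69, SE 0.45, adjusted p = 0.0044 in the cortex by edgeR quasi-likelihood). The cortex call of Hbb was lost without HS cortex replicate 2 (adjusted p = 0.0536). The difference between the organs was 0.52 (SE 0.61). Hba-a1 and Hba-a2, near-identical genes whose reads may be split between them, had log2 fold changes of -2.36 and -2.38 in the colon (adjusted p = 0.062 and 0.066) and -3.25 and -3.23 in the cortex (adjusted p = 0.00311 each). Fewer red cells and less RNA per cell cannot be told apart in these bulk samples. Of the other members of the list tested in both organs, Bpgm had -0.22 and -0.70, and Fech had -0.11 and -0.17, in colon and cortex. Of the genes counted deeply enough in the cortex alone and fitted there, the red cell gene Alas2 had -3.46 (SE 0.60, adjusted p = 0.00176 by edgeR quasi-likelihood). The haemoglobin gene Hba-a3 had -2.41 (SE 0.57, adjusted p = 0.0102) in that fit.

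Among class I genes of the major histocompatibility complex, RT1-A1 and RT1-CE10 lay below 0 in both organs. RT1-A1 had 211, 197, 317 and 346 CPM in HS colon against 627, 470, 483, 497 and 404 CPM in NC colon, and 47.6, 87.1, 85 and 95 CPM in HS cortex against 188, 147, 144, 110 and 114 CPM in NC cortex. The groups were apart in both organs, with log2 fold changes of -0.91 (SE 0.20, adjusted p = 0.062 by edgeR quasi-likelihood) and -0.83 (SE 0.23, adjusted p = 0.0571) and a difference of -0.08 (SE 0.31). RT1-CE10 had -0.65 (SE 0.22) in the colon and -1.12 (SE 0.26, adjusted p = 0.0296) in the cortex. Its cortex call was lost in 7 of 18 fits with 1 library left out. Reads of such similar class I genes may also be shared between them. Among the other members of the antigen presentation list, of which 13 were tested, RT1-A2 had -1.39 in the colon and -0.32 in the cortex, B2m, the light chain of class I, had -0.27 and 0.52, and the class II chaperone Cd74 had 1.28 and -0.32. None of these 3 passed in either organ. Cd74, described after its values were seen, had 925, 1011, 14454 and 4484 CPM in HS colon against 5058, 1554, 1577, 1300 and 1229 CPM in NC colon, and the high HS values were those of replicates 4 and 5, in which the B and plasma cell markers were also highest.

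Clock genes had members on the same side in both organs and members on opposite sides. Arntl had 61.2, 27.8, 45.6 and 49.4 CPM in HS colon against 94.5, 158, 158, 127 and 79 CPM in NC colon. In the cortex Arntl had 15.9, 5.45, 4.25 and 10.1 CPM in HS against 20.7, 35.1, 20, 12 and 34.7 CPM in NC. The colon groups did not overlap and the cortex groups overlapped at HS replicate 1 and NC replicate 4, with log2 fold changes of -1.38 (SE 0.29, adjusted p = 0.0532 by edgeR quasi-likelihood) and -1.46 (SE 0.43, adjusted p = 0.0675). The difference was 0.08 (SE 0.43). The output factor Dbp had 88.6, 131, 174 and 144 CPM in HS colon against 25.8, 23.4, 28.4, 34.8 and 121 CPM in NC colon, and 241, 172, 276 and 177 CPM in HS cortex against 127, 75.5, 136, 146 and 79.7 CPM in NC cortex. The Dbp groups were apart in the cortex and met in the colon at NC replicate 5, with log2 fold changes of 1.47 (SE 0.36) and 0.93 (SE 0.32).

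Per2, named after its values were seen, had 36.5, 17.7, 48.5 and 64.6 CPM in HS colon against 8.59, 28.8, 25.2, 18.2 and 30.8 CPM in NC colon. In the cortex Per2 had 34.4, 23.6, 38.2 and 23 CPM in HS against 15.5, 13.8, 4.44, 19.1 and 12.3 CPM in NC. It was higher by 0.84 (SE 0.36) in the colon and by 1.10 (SE 0.40) in the cortex on the log2 scale, with overlapping colon groups and cortex groups apart. Nr1d1, the repressor of Arntl, lay above 0 in the colon and below 0 in the cortex. It had 79.5, 106, 265 and 186 CPM in HS colon against 77.3, 52.2, 69.4, 141 and 116 CPM in NC colon, and 39.7, 36.3, 55.2 and 31.7 CPM in HS cortex against 77.5, 56.3, 88.9, 78.9 and 51.1 CPM in NC cortex. Groups overlapped in each organ, and its difference of 1.58 (SE 0.47) had an unadjusted p of 0.00224 and an adjusted p of 0.12 by edgeR quasi-likelihood. Tef had 1.62 (SE 0.38) in the colon and 0.28 (SE 0.30) in the cortex. Over the 13 clock genes tested the median effect was 0.62 in the colon and 0.28 in the cortex, against 0.01 and -0.04 over all genes. At an unadjusted p of 0.05, 7 of the 13 were met in the colon (6 higher, 1 lower), where 11.4% of all genes were, and 7 in the cortex (5 higher, 2 lower), where 21.2% were. In the cortex Wee1, a cell cycle kinase under clock control that was named after its values were seen, passed the adjusted test (1.75, SE 0.41, adjusted p = 0.0306). Levels of these genes vary over the day, and the part of the collection time in these values was not tested.

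**Figure D3:**
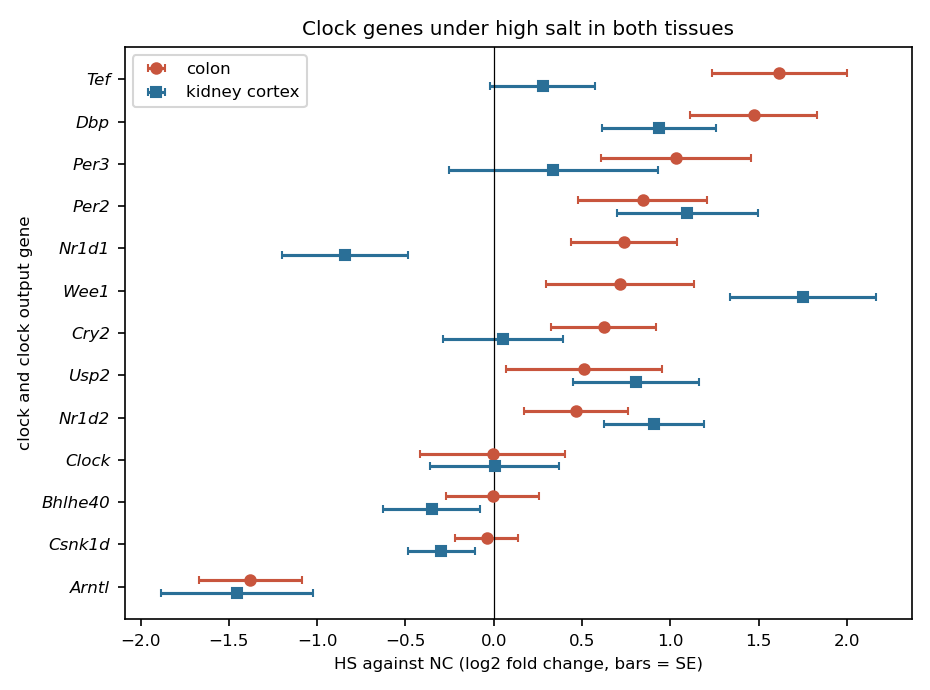
Log2 fold change of HS against NC with SE for the 13 clock and clock output genes tested, in the colon (circles) and the kidney cortex (squares). Arntl is low and Dbp and Per2 are high in both organs, while Nr1d1 is above 0 in the colon and below 0 in the cortex.

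Rbm3, an RNA-binding protein induced by cold, was 1 of the 2 genes higher in both organs by the rule of 1 adjusted and 1 unadjusted p. It had 319, 326, 157 and 388 CPM in HS colon against 198, 121, 164, 164 and 214 CPM in NC colon, and 106, 122, 136 and 86.3 CPM in HS cortex against 72.3, 52.1, 37.8, 50.2 and 67.4 CPM in NC cortex. HS replicate 4 was the single HS colon library within the NC range, and the cortex groups were apart. Its log2 fold change was 0.79 (SE 0.22, adjusted p = 0.123 by edgeR quasi-likelihood) in the colon and 0.97 (SE 0.25, adjusted p = 0.044) in the cortex. The cortex call was lost in 11 of 18 fits with 1 library left out, with an adjusted p of up to 0.145. The other of the 2 genes was Fam3c, a secreted cytokine-like protein (0.59 in the colon, and 1.31 in the cortex with adjusted p = 0.0242). Its cortex call was lost in 4 of 18 such fits. Scd2, a stearoyl-CoA desaturase, had 1.29 (SE 0.36) in the colon and 1.09 (SE 0.38) in the cortex, and Mthfs, an enzyme of folate metabolism, 1.12 (SE 0.28) and 0.66 (SE 0.23). Stam, Peli2, Snx2, Sugt1, Ttc33 and Drg1, also higher in both, had log2 fold changes of 0.49 to 1 in the colon and 0.46 to 0.91 in the cortex, with no adjusted p at or under 0.05.

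Among the genes lower in both, Pklr, a pyruvate kinase, had 22.1, 17.7, 28.5 and 22.8 CPM in HS colon against 62.3, 54, 28.4, 48.5 and 36.6 CPM in NC colon, and 47.6, 47.2, 55.2 and 38.8 CPM in HS cortex against 62, 106, 191, 143 and 121 CPM in NC cortex. The Pklr cortex groups were apart and its colon groups met at 28.5 CPM in HS replicate 4 and 28.4 CPM in NC replicate 3. The log2 fold change was -1.04 (SE 0.33) in the colon and -1.41 (SE 0.28, adjusted p = 0.0158 by edgeR quasi-likelihood) in the cortex. The copper chaperone Atox1 had -0.51 (SE 0.17) in the colon and -0.64 (SE 0.16, adjusted p = 0.039) in the cortex, with groups apart in both organs. With 1 library left out, the cortex call was lost in 3 of 18 fits for Pklr and 9 of 18 for Atox1. Neu1, a lysosomal sialidase, had 54.7, 40.5, 57 and 49.4 CPM in HS colon against 79.5, 112, 120, 139 and 117 CPM in NC colon. In the cortex Neu1 had 156, 192, 212 and 187 CPM in HS against 213, 285, 280, 249 and 196 CPM in NC. Its log2 fold change was -1.16 (SE 0.21, adjusted p = 0.0202) in the colon and -0.40 (SE 0.17, adjusted p = 0.194) in the cortex. Its colon call was lost without NC colon replicate 3 or 4 or HS colon replicate 2, with an adjusted p of up to 0.0836. The call was also lost in 4 other alternatives, with an adjusted p of up to 0.254 over them. These were voom with a variance per organ, CAL libraries added, HS colon replicate 3 put back and each organ fitted alone.

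**Figure D4:**
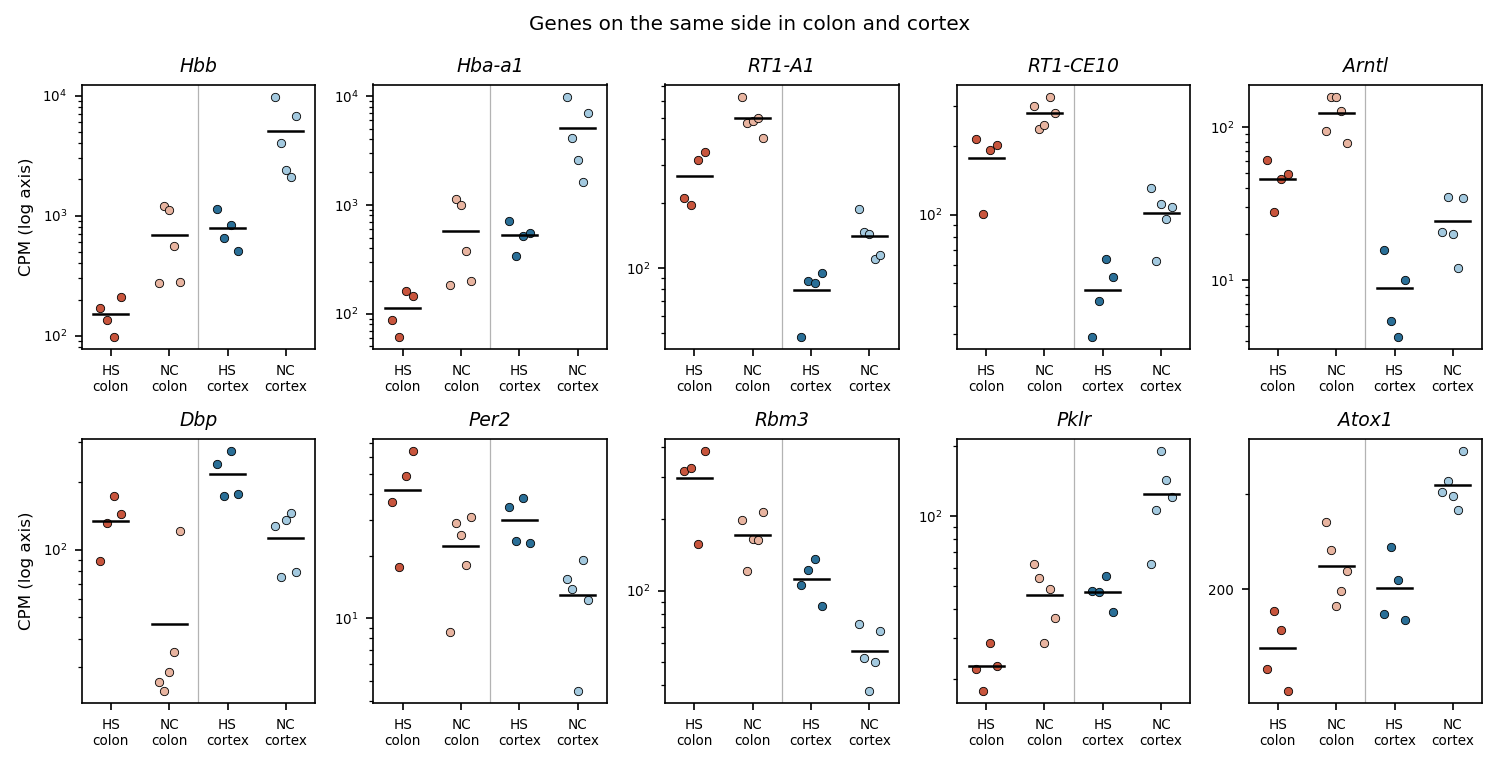
CPM (log axes, 1 point per library, bar = mean) of 10 genes on the same side in both organs, for HS and NC colon and HS and NC cortex. HS libraries lie below NC in both organs for Hbb, Hba-a1 and RT1-A1 without overlap, and mostly above NC in both for Dbp, Per2 and Rbm3.

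The remaining colon calls did not pass in the cortex. Papss2, which makes the sulfate donor of sulfation, rose by 1.21 (SE 0.25, adjusted p = 0.0492 by edgeR quasi-likelihood) in the colon and had 0.25 (SE 0.26) in the cortex. S100a4, a calcium-binding protein of motile cells, rose by 1.11 (SE 0.23, adjusted p = 0.0492) in the colon and had -0.15 (SE 0.37) in the cortex. Hmox2, the constitutive haem oxygenase, fell by 0.85 (SE 0.16, adjusted p = 0.0454) in the colon, and Entpd5, a nucleotidase of the endoplasmic reticulum, fell by 0.81 (SE 0.17, adjusted p = 0.0492). In the cortex Hmox2 had -0.07 and Entpd5 had 0.04. The HS and NC colon groups of these 4 genes did not overlap, as was so for 2.24% of all genes tested. The 4 were chosen as colon calls in these same libraries, so the gap adds no support. Their differences between organs had adjusted p of 0.103 to 0.197 by edgeR quasi-likelihood. Each of the 4 colon calls was lost in 13 to 15 fits with 1 library left out, with an adjusted p of up to 0.0997 (Papss2). They were also lost in 5 to 8 other alternatives, which for each included voom, CAL libraries added and each organ fitted alone.

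Of 34 cell cycle and DNA replication genes listed, 11 were counted deeply enough in both organs to be tested. Those 11 had a median effect of 0.66 in the colon, with all 11 above 0, against -0.01 in the cortex, with 5 above 0. Of the 11, 6 were higher at an unadjusted p of 0.05 in the colon, against 6.13% of all genes. They do not stand for the listed genes left untested. Mki67 and Top2a, genes of dividing cells, were counted too rarely in the cortex to be tested. Their HS and NC colon levels overlapped. Mki67 had 17.3 to 31.5 CPM of all counts in HS colon and 6.54 to 34.5 CPM in NC colon. Top2a had 16.8 to 33.7 CPM in HS colon and 10.5 to 50.013 CPM in NC colon. Of the surface colonocyte markers, 9 were tested, with a median effect in the colon of -0.50, 0 higher and 5 lower at that p, against 5.22% of all genes lower, and the sum over the whole list was 62455, 36685, 41374 and 45548 CPM in HS colon, against 53502 to 61574 CPM in NC colon. HS colon replicates 2, 4 and 5 lay below every NC colon library, and the part of this in the colon effects was not tested. Tk1, a thymidine kinase of S phase, had 1.03 (SE 0.29) in the colon and -0.15 (SE 0.29) in the cortex, Mcm7 of the replicative helicase 0.83 (SE 0.34) and -1.03 (SE 0.38), and the phosphatase Cdc25b 1.21 (SE 0.63) and -2.60 (SE 0.73). The condensin Smc4 had 0.17 (SE 0.28) in the colon and rose by 1.40 (SE 0.34, adjusted p = 0.032 by edgeR quasi-likelihood) in the cortex. Among 55 ribosomal protein genes 48 were above 0 in the colon, where 51.7% of all genes were, against 24 in the cortex, but their medians were only 0.19 and -0.07. None of the lists' members other than Mt2A passed the difference test.

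Of 28 ubiquitin conjugation and autophagy genes tested, 0 were higher and 1 lower at an unadjusted p of 0.05 in the colon, where 6.13% of all genes were higher and 5.22% lower, against 8 higher and 1 lower in the cortex, where 11.3% were higher and 9.95% lower. Ube2d3, a ubiquitin-conjugating enzyme, had -0.04 (SE 0.18) in the colon and rose by 0.81 (SE 0.18, adjusted p = 0.0257 by edgeR quasi-likelihood) in the cortex, and Ube2h had -0.21 (SE 0.22) and rose by 0.80 (SE 0.22, adjusted p = 0.049). Lamp2, a membrane protein of lysosomes, had -0.43 (SE 0.19) in the colon and 0.59 (SE 0.18, adjusted p = 0.081) in the cortex, and its difference of -1.02 (SE 0.27) had an adjusted p of 0.0955. In the Nrf2 and oxidative stress list the transcription factor Nfe2l2 had -0.11 (SE 0.17) in the colon and rose by 0.68 (SE 0.17, adjusted p = 0.039) in the cortex, while its inhibitor Keap1 had 0.25 (SE 0.27) in the colon and -0.75 (SE 0.27) in the cortex. The glutathione transferase Gstp1 had 0.47 (SE 0.19) in the colon and -0.58 (SE 0.19) in the cortex.

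In fatty acid oxidation, Acads, which acts on short chains, had 0.23 (SE 0.17) in the colon and fell by 0.77 (SE 0.18, adjusted p = 0.0296 by edgeR quasi-likelihood) in the cortex. Acadm and Acadl, which act on medium and long chains, had effects of the opposite sign to Acads in each organ. They had -0.40 (SE 0.17) and -0.37 (SE 0.17) in the colon and 0.25 (SE 0.16) and 0.22 (SE 0.16) in the cortex. Neither passed the adjusted test in either organ, so these signs are not settled. Dnajb9, a co-chaperone induced by unfolded proteins, had -0.19 (SE 0.29) in the colon and rose by 1.26 (SE 0.28, adjusted p = 0.0285) in the cortex. The median over 15 glycolysis genes was -0.20 in the colon and -0.43 in the cortex. The extracellular matrix list had 13 of 14 genes tested above 0 in the colon, where 51.7% of all genes were, and 6 of 14 in the cortex. At an unadjusted p of 0.05, 2 of them were higher in the colon, against 6.13% of all genes. In the cortex 1 was higher and 3 lower at that p, and none passed the adjusted test in either organ. Bgn (biglycan) had 1.21 (SE 0.27) in the colon and 0.09 in the cortex.

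**Figure D5:**
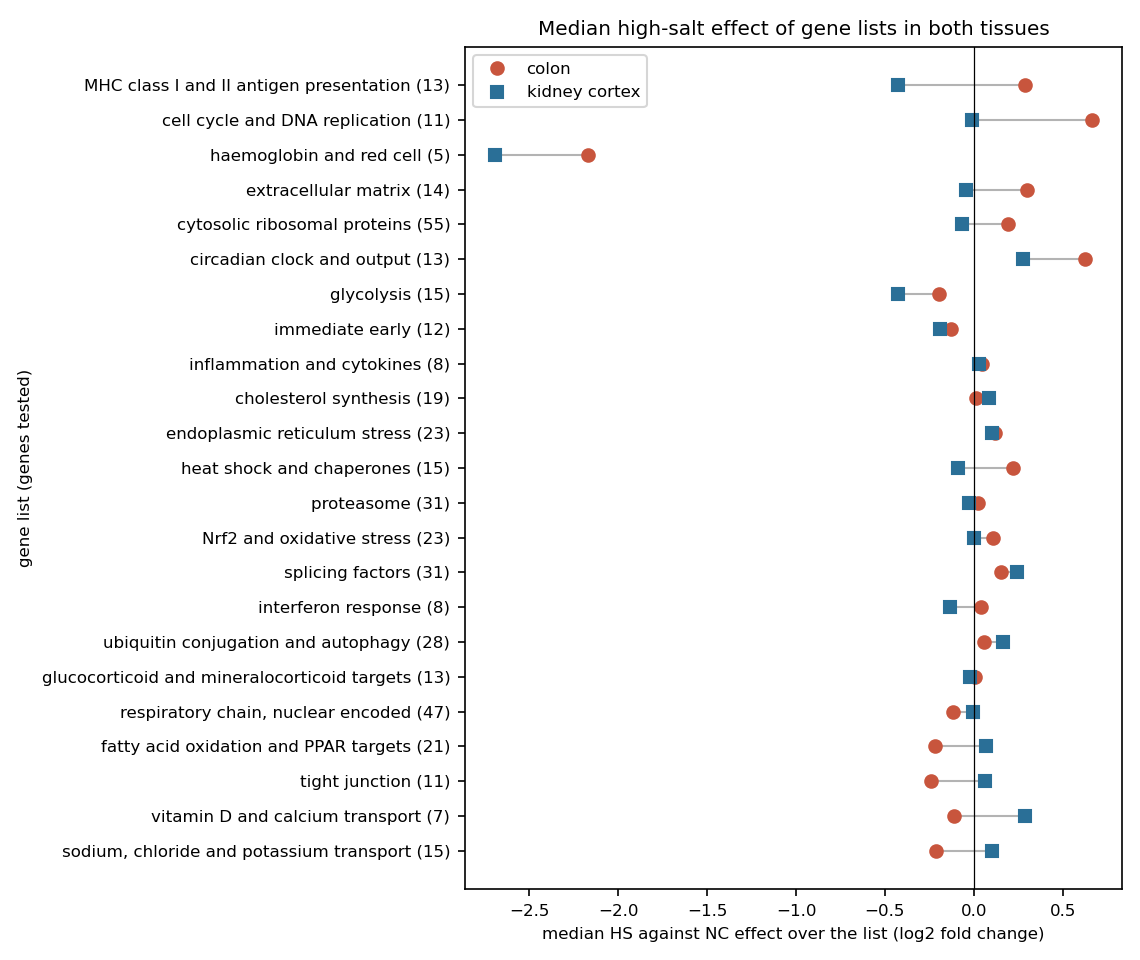
Median log2 fold change of HS against NC over each functional gene list (cell type marker lists not drawn) with at least 5 genes tested (number in brackets), in the colon (circles) and the kidney cortex (squares), ordered by the median difference. Of the lists drawn, the median differences are largest for antigen presentation and cell cycle genes, and the haemoglobin list is low in both organs.

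Of 15 sodium, chloride and potassium transport genes tested, 0 met an unadjusted p of 0.05 for the difference, which 15.5% of all genes met, and none passed the adjusted test in either organ by edgeR quasi-likelihood. The sodium channel subunit Scnn1a had -0.01 (SE 0.27) in the colon and -0.18 (SE 0.35) in the cortex, the kinase Sgk1 -0.29 (SE 0.42) and -0.17 (SE 0.44), and the chloride cotransporter Slc12a2 0.88 (SE 0.33) and 0.49 (SE 0.48). The sodium-proton exchanger Slc9a3 had -1.36 (SE 0.49) in the colon and 0.10 (SE 0.53) in the cortex, with HS colon values of 197, 222, 37.1 and 22.8 CPM against NC colon values of 477, 140, 719, 89.4 and 248 CPM. The glucocorticoid receptor Nr3c1 had 0.44 (SE 0.22) and 0.74 (SE 0.22), and the vitamin D receptor Vdr -0.30 (SE 0.24) and -0.13 (SE 0.27). The difference of Scnn1a was 0.18 (SE 0.44) and that of Sgk1 -0.12 (SE 0.60), each smaller than its SE. Atp6ap2, the prorenin receptor, had 0.16 (SE 0.15) in the colon and rose by 0.59 (SE 0.14, adjusted p = 0.0305) in the cortex. The cortex calls of Ube2d3, Ube2h, Nfe2l2, Acads, Dnajb9, Smc4 and Atp6ap2 were each lost in 7 to 14 fits with 1 library left out.

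Genes measured well in 1 organ alone have no difference between organs. Fitted in their own organ, 2 of 1409 genes counted in the colon alone passed, 0.142%, both lower, among them the water channel Aqp8 (-1.87, adjusted p = 0.0104 by edgeR quasi-likelihood), against 0.0281% of all genes in that fit. In the cortex 128 of 1327 passed, 9.65%, 69 higher and 59 lower, against 12.9% of all genes in that fit. The colon-only count was 0 without HS colon replicate 2 and 4 without NC colon replicate 5. The cortex-only count was 84, 61 and 79 without HS cortex replicates 1, 2 and 4.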

How the data were processed

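RNA of rat kidney cortex and colon was sequenced on an Illumina NextSeq from tagmentation libraries, which do not mark the strand. Per the submitters' processing notes, FastQC 0.11.9, Trimmomatic 0.39, HISAT2 2.1.0, featureCounts 1.6.5 and the build Rnor_6.0 were used; the gene annotation and the strand setting are not given in the sources used here. The authors deposited raw counts, whole reads per gene symbol, for 20207 genes, with no normalization. Antisense and overlapping genes cannot be told apart in such counts.

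The counts were tested with edgeR 4.0.16 (R 4.3.3) by the quasi-likelihood F test, in 1 model with a mean for each of the 4 groups over 18 libraries. Genes passed filterByExpr (minimum count 10, minimum total 15) within each organ and were kept if they passed in both, which left 5708. Library sizes were scaled by TMM, p-values were adjusted by Benjamini-Hochberg over all genes tested, and SE was the log2 fold change over the square root of F. Levels are CPM after TMM scaling, computed on the genes tested, and marker sums are CPM of all counts. None of 465 pairs of libraries held identical counts. Replicate numbers were not used as pairs.

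Genes named are, for the difference, up to 10 in each direction past the threshold; for the same side, the 10 in each direction with the smallest larger-of-2 p; up to 4 members of each described list with the smallest p of the difference or larger-of-2 p; and Scnn1a, Sgk1, Nr3c1, Vdr and Slc12a2. The colon calls, Fam3c, Mt1, Fech, Alas2, Hba-a3, Cd74, Per2, Wee1 and the genes just outside the threshold were named after their values were seen. Members and lists (946 entries, 924 matched, 502 tested) were chosen with earlier results of these data known. Alternatives were the DESeq2 1.42.0 test, edgeR with DESeq2 size factors, TMM per organ, 3 other filters, limma 3.58.1 voom, robust fitting, CAL libraries added, HS colon replicate 3 put back, replicate blocks, thinning and each library left out. Another 3 were chosen after seeing the data: without HS colon replicates 4 and 5, a muscle covariate, and each organ fitted alone. Promoters came from RefSeq.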

Additional observations from a re-analysis of the deposited data

Results flagged for a closer look

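In all, 10 genes had an HS effect in the colon that differed from that in the cortex by the test of the difference itself. The log2 differences were 2.44 for Mlph, 2.15 for Mt2A, 1.41 for Erp29, 1.6 for Flot2, 2.16 for Mmp15, 1.88 for Aen, -1.97 for Rb1cc1, -1.4 for Yipf4, -1.14 for Pgrmc1 and -1.98 for Acer3.

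In 7 of 140 groups of libraries (35 genes in 4 groups each), 1 library stood far from the others, its gap to the nearest divided by the whole range of the group exceeding 0.829 for 4 libraries or 0.71 for 5. Chance flags about 5% of such groups. Erp29 was low in HS colon replicate 1 (102 CPM, ratio 0.929), and Dbp was high in NC colon replicate 5 (121 CPM, 0.883). Amn was low in HS cortex replicate 2 (167 CPM, 0.861) and Bcl7c was high in the same library (69.0 CPM, 0.861). Mt2A was high in NC cortex replicate 4 (1057 CPM, 0.855), and Flot2 (179 CPM, 0.799) and Rb1cc1 (32.7 CPM, 0.764) were high in NC cortex replicate 1.

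The small intestine markers summed to 63273 CPM in HS colon replicate 3, the library left out of the comparison, above the highest value of NC colon, 1806 CPM.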

How the results depend on the processing

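The counts below are given as difference, colon, cortex, same side in both organs and same side by 1 adjusted and 1 unadjusted p; they were 10, 6, 117, 0 and 16. DESeq2 gave 84, 49, 255, 5 and 30, with 3 of the 10 difference genes without an adjusted p and the other 7 still called. DESeq2 size factors gave 11 in the colon and 1 in both. TMM per organ gave 3 in the colon. A filter over the 4 groups together gave 1, 19, 51 and 1 (12 by the last rule). No filter gave 2, 34, 39 and 3. A filter of 1 CPM in 4 libraries of each organ gave 1, 4, 34 and 5 by the last rule. Voom with a variance per organ gave 6, 0, 821 and 40 by the last rule. Robust fitting gave 12 in the colon and 1 in both. Adding CAL libraries gave 3 for the difference and 0 in the colon. Putting HS colon replicate 3 back gave 7, 14, 37, 3 and 7. Thinning to the shallowest library gave 1, 7, 38, 1 and 6. Leaving out HS colon replicates 4 and 5 together gave 26, 35, 477, 6 and 88. The muscle covariate gave 11 in the colon. Each organ fitted alone gave 0 in the colon, 908 in the cortex and 37 by the last rule. The cause of these shifts was not tested.

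Whether replicate numbers pair the organs is not settled, and they were not used as pairs because not every pair deviated together: of 8 pairs of same-numbered colon and cortex libraries of a diet, 5 deviated together with a correlation above 0.1, and 4 correlated best with their own number. The 3 HS pairs and 2 of the 5 NC pairs were those above 0.1. With the replicate block the difference had 6 calls and the colon 3, and with the replicate block within diet the difference had 94 calls, which included all 10 genes.

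With each library left out in turn the counts ranged from 0 to 119 for the difference, 1 to 62 in the colon and 3 to 383 in the cortex. On the same side they ranged from 0 to 4 in both organs and 3 to 72 by the last rule. Genes tested in 1 organ alone ranged from 0 to 4 in the colon and 61 to 152 in the cortex. Over 16840 recomputed values of named genes, 0 called values changed sign and 312 uncalled ones did. Called values lie far from 0 and the fits reuse mostly the same libraries, so their kept signs add no support. A depth of 289529 to 1239310 counts limits the low genes.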
